A study of Mus musculus with 4 samples.

Results

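Genes of ion and bicarbonate transport were compared between epididymal white adipose tissue of wild-type mice (Nck2+/+) and of mice mutant for Nck2 (Nck2-/-), which encodes an adaptor protein of SH2 and SH3 domains. The set holds 55 of the 39179 genes in the deposited table, of which 22740 are protein coding. Its members are all protein-coding genes whose symbols belong to the Slc4, Slc9, Slc12 and Slc26 families, the Scnn1 subunits or the Clcn family, plus Cftr. A symbol match also takes in 3 genes that are not transporters, namely the scaffold proteins Slc9a3r1 and Slc9a3r2 and the binding protein Slc4a1ap. There were 2 WT and 2 KO libraries, all of mice with a mixed genetic background, made from polyadenylated RNA and sequenced as short reads. Age, diet, the promoter or construct behind the mutant allele, and whether a library came from a single animal or a pool are not given in the sources used here. P-values therefore measure the spread between these 4 libraries, which may be technical.

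These proteins move sodium, potassium, chloride, protons and bicarbonate across membranes. In absorbing and secreting epithelia they are placed on the lumen side or the blood side of the cell, so that salt, acid or base, and water cross the sheet. In the epididymis, such transporters acidify the fluid around sperm and set its ion content, and specialised narrow and clear cells carry the proton pump. Other members do housekeeping work in nearly every cell, such as control of cell volume and cell pH, and some act in the membranes of endosomes and lysosomes.

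Upstream sequences are shown for 6 members, because the results below turn on a fall of Slc4a8, Slc9a7 and 2 subunits of the epithelial sodium channel and on a rise of Slc12a4 and Slc4a4. They were chosen from the 12 members past the threshold whose 250-base window before the start held no annotated exon. All are from RefSeq (GRCm38.p6), written 5′ to 3′ on the strand of the gene. Capitals mark matches, on either strand, to a GC box (GGGCGG), a core motif of PPAR-RXR (AGGTCA), a core motif of steroid receptors (AGAACA) or a TATA box (TATAAA).
Slc4a8 (chr15:100761497-100761746, plus strand): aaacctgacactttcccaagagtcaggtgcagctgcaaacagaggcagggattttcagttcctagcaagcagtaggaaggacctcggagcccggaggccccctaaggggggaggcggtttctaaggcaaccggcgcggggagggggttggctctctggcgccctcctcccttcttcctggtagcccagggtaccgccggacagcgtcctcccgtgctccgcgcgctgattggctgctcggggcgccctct
Slc9a7 (chrX:20291828-20292077, minus strand): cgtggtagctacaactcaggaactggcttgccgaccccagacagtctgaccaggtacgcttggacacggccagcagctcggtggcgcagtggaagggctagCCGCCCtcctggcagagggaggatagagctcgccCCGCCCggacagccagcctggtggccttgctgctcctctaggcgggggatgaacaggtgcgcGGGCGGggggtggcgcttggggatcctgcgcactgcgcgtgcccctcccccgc
Scnn1b (chr7:121864788-121865037, plus strand): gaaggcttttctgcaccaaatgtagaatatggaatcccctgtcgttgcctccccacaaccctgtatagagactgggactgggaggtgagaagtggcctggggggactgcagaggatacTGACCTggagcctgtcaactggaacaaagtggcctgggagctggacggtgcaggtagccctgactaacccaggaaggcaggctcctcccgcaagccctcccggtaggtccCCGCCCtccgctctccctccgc
Scnn1g (chr7:121734229-121734478, plus strand): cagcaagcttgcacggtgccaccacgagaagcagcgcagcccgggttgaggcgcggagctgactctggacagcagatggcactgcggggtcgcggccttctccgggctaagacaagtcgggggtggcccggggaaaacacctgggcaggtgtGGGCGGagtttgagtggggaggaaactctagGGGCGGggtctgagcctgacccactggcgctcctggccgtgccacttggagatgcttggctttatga
Slc12a4 (chr8:105966116-105966365, minus strand): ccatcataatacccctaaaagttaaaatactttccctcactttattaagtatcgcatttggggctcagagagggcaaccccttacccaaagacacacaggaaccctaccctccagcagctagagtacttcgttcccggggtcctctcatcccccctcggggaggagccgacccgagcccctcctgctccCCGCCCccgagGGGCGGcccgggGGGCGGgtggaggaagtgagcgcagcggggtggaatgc
Slc4a4 (chr5:89027716-89027965, plus strand): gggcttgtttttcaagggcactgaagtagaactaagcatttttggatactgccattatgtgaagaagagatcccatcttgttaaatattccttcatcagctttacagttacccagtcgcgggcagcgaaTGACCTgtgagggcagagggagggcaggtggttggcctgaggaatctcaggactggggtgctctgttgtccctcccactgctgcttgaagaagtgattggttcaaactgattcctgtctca

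The Slc9a7 and Slc12a4 windows each hold 3 GC boxes, the Scnn1g window holds 2, and the Scnn1b window holds 1 GC box and 1 AGGTCA match. The Slc4a4 window belongs to an internal start of that gene and holds 1 AGGTCA match and 3 CpG pairs. No letter group searched was found in the Slc4a8 window. Across the promoter table, 40 members had 53 starts in it, and the letters were searched in the 250 bases before each start. A GC box was found in 47.2% of these windows and in 32.7% of the 32851 windows of all genes, AGGTCA in 15.1% and 14%, AGAACA in 11.3% and 16.1%, and TATAAA in 20.8% and 12.4%. Median GC content was 60.8% in the members' windows and 52.4% in all windows. These are letter matches and not tests of binding.

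The libraries held between 31831904 and 37980391 reads assigned to genes. Nck2 stood at 1279 and 1667 normalized counts (reads divided by the library's size factor) in WT and at 1076 and 947.3 in KO, both KO libraries being lower. Its log2 fold change was -0.53 (SE 0.16, adjusted p = 0.0509), and since the labels do not give the deleted part of the gene, this level does not check the genotype. Adipoq, an adipocyte hormone, was present in every library (39441 and 29702 in WT, 140913 and 142401 in KO). Both WT libraries also held markers of epididymis and vas deferens at 3.73% and 4.75% of all normalized counts, summed over 15 genes, against 0.00141% and 0.000992% in KO, where 5 of the 15 genes were at 0. In that list 9 of 10 tested genes were lower in KO, among general epithelial markers 11 of 12 (including Epcam and Cdh1), and among smooth muscle markers 10 of 10. Over all 16710 genes tested, 24.4% were lower and 22.4% were higher in KO. Among adipocyte markers 9 of 12 were higher, with a list median of 1.62 on the log2 scale, as were 8 of 8 macrophage and 6 of 8 endothelial markers. Of 6 nerve and Schwann cell markers 4 were lower and 1 was higher, with a list median of -2.96. The 8 skeletal muscle markers, 1 of them called lower and 1 higher, summed to 12761 and 18841 in WT and to 953.8 and 6471 in KO. That sum was 6.78-fold higher in KO replicate 2 than in KO replicate 1. The list median was nonetheless 2.75, with both KO libraries above both WT libraries for 5 of the 8 and below for 2. No WT library was without the epididymal markers, so the part they play in the results below was not tested. In bulk tissue, fewer cells of a type and less RNA per cell cannot be told apart.

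Of the 55 members, 43 had a mean normalized count of 10 or more and were tested with all 16710 such genes (limma on log2 of normalized count + 1, Benjamini-Hochberg threshold of 0.05). In KO, 16 members were lower (37.2% of those tested) and 7 were higher (16.3%). Over all genes tested, 24.4% were lower, 22.4% were higher and 46.7% were called in either direction. A fall of 1 or more on the log2 scale was called for 11 members (25.6%) and for 15.4% of all genes, and a rise of that size for 3 members and for 8.26% of all genes. Both KO libraries lay below both WT libraries for 19 tested members (44.2%, all genes 40.6%) and above them for 13 (30.2%, all genes 38.9%). Groups that did not overlap were thus common over all genes, so below they describe a gene and do not set it apart. The falls ran from -0.32 to -6.23 with a median of -2.15, and the rises from 0.29 to 1.49 with a median of 0.76. The median change over the 43 tested members was -0.09, and over all genes it was -0.01. The summed level of the 55 genes was 45150 and 48690 normalized counts in WT and 44842 and 45810 in KO, so the total lay close together while single members moved far apart.

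**Figure D1:**
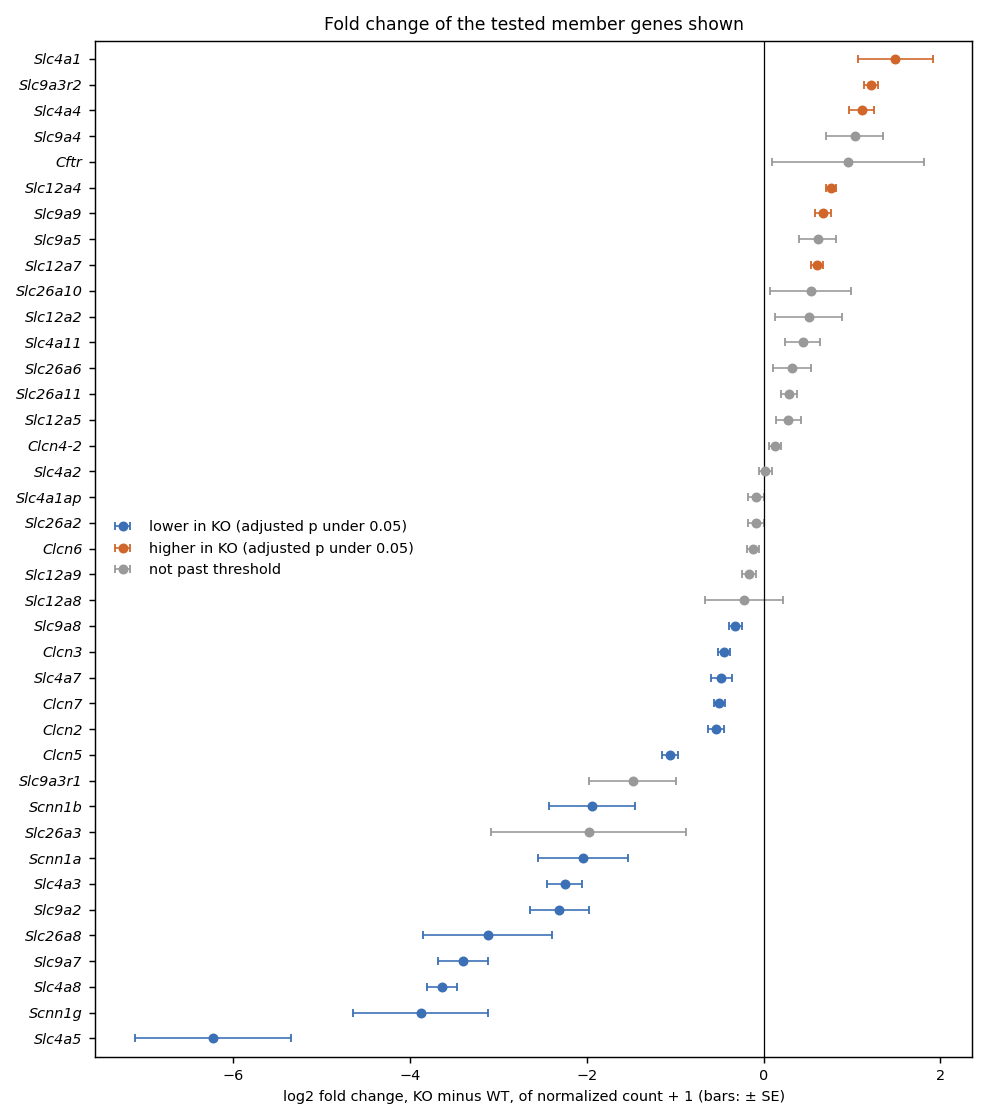
Log2 fold change, KO minus WT, of 39 tested members, with bars of ± SE from the limma fit over 4 libraries. Slc4a5 and Scnn1g lie furthest to the left at -6.23 and -3.88, and Slc4a1 and Slc9a3r2 furthest to the right at 1.49 and 1.21.

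Fits that left out 1 library called fewer members than the fit to all libraries, and also fewer of all genes tested. Both were fewest without WT replicate 2. In each such fit 1 group held a single library, and the loss of calls was not particular to the members. The falls of Slc4a3, Slc4a8 and Slc9a7 and the rises of Slc12a4 and Slc9a3r2 were called in all 14 alternative fits. In the authors' deposited table, 50 members had an adjusted p, and 19 of them were lower and 6 higher at 0.05, against 21.7% lower and 18.8% higher among its 19091 genes with an adjusted p.

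All 3 subunits of the epithelial sodium channel, through which tight epithelia take up sodium, were lower in KO (all genes 24.4%). Scnn1a, the alpha subunit (chromosome 6, 125320659 to 125344943), had 280.2 and 378.7 normalized counts in WT and 127.4 and 47.98 in KO (log2 fold change -2.04, SE 0.51, adjusted p = 0.0336). Scnn1b, the beta subunit (chromosome 7, 121865038 to 121918514), had 39.74 and 32.56 in WT and 13.12 and 5.579 in KO (-1.94, SE 0.49, adjusted p = 0.0346). Scnn1g, the gamma subunit, lies beside Scnn1b (chromosome 7, 121734479 to 121768475) and had 55 reads in WT and 2 in KO, a ratio of 26.3 per normalized read (exact 95% interval 6.93 to 222, counting error only). The groups did not overlap for any of the 3 genes, and Scnn1a and Scnn1b were higher in KO replicate 1 than in KO replicate 2 by 2.66-fold and 2.35-fold. On the log2 scale Scnn1g fell by 3.88 (SE 0.76, adjusted p = 0.0174). Per kb of exon, Scnn1a made up 75.9% and 79.5% of the 3 subunits in WT and 86.1% and 80.2% in KO, so the alpha subunit was the most abundant in every library.

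With WT replicate 1 left out, the change was -2.26 for Scnn1a, -1.80 for Scnn1b and -4.26 for Scnn1g. With WT replicate 2 left out it was -1.83, -2.08 and -3.50. The 3 genes were not called in these fits, which held a single WT library and called fewer of all genes as well. Without KO replicate 2 the fall of Scnn1b was -1.39 (adjusted p = 0.0697). Over their alternatives the adjusted p ran from 0.00101 to 0.244 for Scnn1a, from 0.0242 to 0.176 for Scnn1b and from 0.0055 to 0.14 for Scnn1g.

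Among the chloride channels, Clcn2, a channel of many cell types, was modestly lower, with 476.8 and 483.8 in WT and 327 and 332.5 in KO (-0.54, SE 0.09, adjusted p = 0.0121; without WT replicate 1 or 2, 0.095 and 0.109, and at the lowest 0.00786). Clcn1, the skeletal muscle channel, had between 3 and 14 reads per library and was not tested.

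Cftr, the cAMP-regulated chloride and bicarbonate channel of the lumen side of epithelia, was not called. It had 17.32 and 33.49 normalized counts in WT and 105.9 and 21.2 in KO (0.95, SE 0.86, adjusted p = 0.408). KO replicate 1 was the highest of the 4 libraries and KO replicate 2 lay between the WT libraries. Without KO replicate 1 the change was -0.18, so its sign rested on that library, and no alternative called it (adjusted p 0.0578 to 0.822).

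The Clcn proteins of endosomes and lysosomes, which exchange chloride for protons, were all tested, and 3 of 5 were lower (all genes 24.4%). Clcn5, of early endosomes (chromosome X, 7153810 to 7319358), had 1418 and 1573 in WT and 743.9 and 688.5 in KO, 2.09-fold lower (-1.06, SE 0.09, adjusted p = 0.00231; 2.23e-11 to 0.0536 over the alternatives, the highest without WT replicate 2). The lysosomal Clcn7 fell by 0.50 and Clcn3 by 0.45, with adjusted p of 0.00473 and 0.00784. The groups did not overlap for these 3 genes, and KO lay below WT in this way for 40.6% of all genes tested. The falls of Clcn7 and Clcn3 were under 1.5-fold. Clcn4-2 (0.13) and Clcn6 (-0.12) did not pass the threshold. Over the alternatives the adjusted p ran from 1.56e-05 to 0.0593 for Clcn7 and from 0.000258 to 0.0762 for Clcn3, highest without WT replicate 2, and for Clcn3 it was 0.055 without WT replicate 1.

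The Slc4 transporters that carry sodium with bicarbonate differed most from one another. Slc4a8, a sodium-driven chloride and bicarbonate exchanger (chromosome 15, 100761747 to 100823968), had 1361 and 1517 normalized counts in WT and 132.1 and 99.31 in KO, 12.4-fold lower (-3.64, SE 0.17, adjusted p = 0.000804). Slc4a5, an electrogenic cotransporter of kidney and choroid plexus (chromosome 6, 83219828 to 83304945), had 163 and 186.1 in WT and 0 and 4.463 in KO (-6.23, SE 0.88, adjusted p = 0.00749). Slc4a4, the electrogenic cotransporter of kidney, pancreas and many other tissues (chromosome 5, 88886818 to 89239653), went the other way, with 917 and 841.1 in WT and 2138 and 1676 in KO, 2.17-fold higher (1.11, SE 0.14, adjusted p = 0.00561). Groups did not overlap for any of these 3 genes. Slc4a7, the electroneutral cotransporter, fell by 0.48 (SE 0.12, adjusted p = 0.0322), and Slc4a10 had 5 reads in WT and 0 in KO and was not tested. Leaving out WT replicate 1 or 2 gave an adjusted p of 0.0953 and 0.113 for Slc4a5 (lowest of the alternatives 1.02e-12) and of 0.0741 and 0.098 for Slc4a4 (lowest 3.78e-08). For Slc4a7 it lay above 0.05 whichever of the 4 libraries was left out (0.0567 to 0.124, lowest of the other alternatives 0.008).

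Per kb of exon, the make-up of this class turned over. Slc4a4 went from 24.2% and 20% of the class in WT to 63.9% and 56.8% in KO, whereas Slc4a8 went from 29.8% and 29.9% to 3.28% and 2.79%. The ratio of Slc4a4 to Slc4a8 per kb was 0.811 and 0.668 in WT and 19.5 and 20.3 in KO. Slc4a7 made up 38% and 41.7% in WT and 32.8% and 40.2% in KO. The summed normalized count of the class was 4470 and 5016 in WT and 3813 and 3447 in KO.

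**Figure D2:**
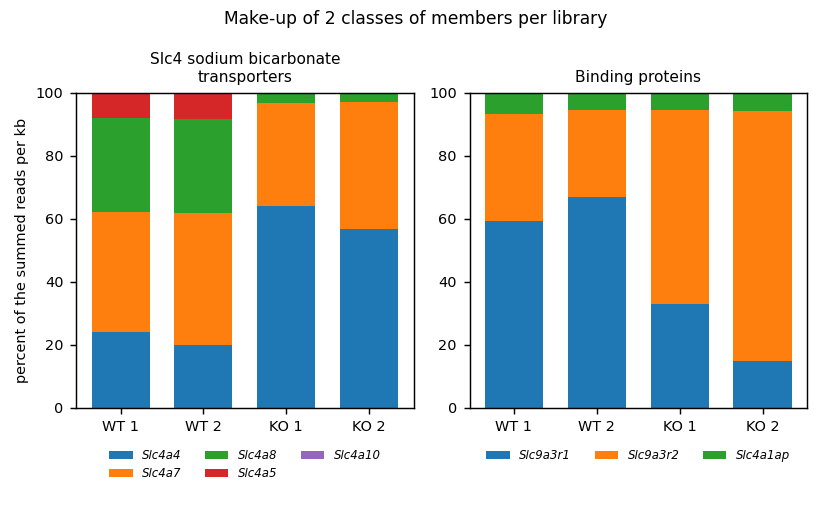
Percent of the summed reads per kb of exon taken by each gene of 2 classes (stacked bars, 1 bar per library). Slc4a4 grows from 24.2% and 20% in WT to 63.9% and 56.8% in KO, and Slc9a3r2 from 34.2% and 27.6% to 61.7% and 79.2%.

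The 3 anion exchangers of the Slc4 family, which swap chloride for bicarbonate, gave 3 patterns. Slc4a3, known from heart and brain (chromosome 1, 75546266 to 75562172), had 2372 and 3326 in WT and 649.3 and 534.5 in KO, 4.81-fold lower (-2.25, SE 0.20, adjusted p = 0.0025). Nerve and skeletal muscle markers, whose values are given with the libraries, were also lower in sum in both KO libraries. Single skeletal muscle markers mostly went the other way, with both KO libraries above both WT libraries for 5 of 8. The part of these markers in the Slc4a3 result was not tested. Slc4a2, present in most cells, had 2491 and 2357 in WT and 2505 and 2407 in KO (0.02, adjusted p = 0.827), with the groups overlapping. It shares 1141 exon bases with the gene Fastk on the opposite strand, and whether the counting used strand is not stated, so its value is uncertain. Slc4a1, the band 3 protein of red cells (chromosome 11, 102348824 to 102366203), had 13.25 and 11.16 in WT and 26.23 and 49.1 in KO (1.49, SE 0.42, adjusted p = 0.0465). Over the 8 erythroid markers the summed level was 12175 and 14294 in WT and 21497 and 30626 in KO, 1.97-fold higher, and its part in the Slc4a1 result was not tested. Of the 6 erythroid markers tested, 4 were higher and 1 was lower, the alpha globin gene Hba-a2, named after its values were seen (547.1 and 634.5 in WT, 179 and 214.2 in KO; -1.58, adjusted p = 0.00283). The Slc4a1 call was lost in 6 of 13 alternatives, with adjusted p from 0.0397 to 0.211; it was 0.161, 0.211 and 0.158 without WT replicate 1, WT replicate 2 and KO replicate 2. Slc4a11, a proton-permeable member of the corneal endothelium, was above both WT libraries in both KO libraries and did not pass (0.44, adjusted p = 0.138), and Slc4a9 had 2 to 8 reads per library.

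Among the sodium/proton exchangers of the cell surface, Slc9a2 of stomach, gut and kidney epithelia (chromosome 1, 40680574 to 40769273), had 124.3 and 93.04 in WT and 16.87 and 25.66 in KO, 5.11-fold lower (-2.31, SE 0.33, adjusted p = 0.00731; without WT replicate 1 or 2, 0.0788 and 0.0775, and at the lowest 2.61e-05). Slc9a3, the absorbing exchanger of kidney and gut, had 36 reads in WT and 1 in KO (ratio 34.4, exact 95% interval 5.79 to 1395) and was below the level tested. Slc9a2 and Slc9a3 thus both had fewer reads in each KO library than in each WT library. Slc9a4, of the stomach, had 16.3 and 18.61 in WT and 30.92 and 43.52 in KO (1.03, SE 0.32, adjusted p = 0.0596), and Slc9a5, of the brain, gave 0.61 (adjusted p = 0.0806). Slc9a2 and Slc9a4 are neighbours and lie 2.68 Mb and 2.81 Mb from Nck2 (chromosome 1, 43444579 to 43570515), and their values pointed in opposite directions. Slc9a4 did not pass the threshold. It shares 764 exon bases with Gm37435 and 207 with Gm35801, both on the opposite strand, so its value is uncertain.

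Exchangers of endosomes and the Golgi also split. Slc9a7, of the trans-Golgi network (chromosome X, 20105754 to 20291807), had 88.64 and 104.2 in WT and 7.496 and 8.927 in KO, 11.7-fold lower (-3.40, SE 0.28, adjusted p = 0.00219). Slc9a9, of late recycling endosomes, rose from 450.3 and 457.8 to 746.8 and 700.7 (0.67, adjusted p = 0.00563; without WT replicate 1 or 2, 0.065 and 0.0737, and at the lowest 0.000233). Slc9a8, of the Golgi, fell by 0.32 (adjusted p = 0.0238), a call lost whichever library was left out (0.0551 to 0.12, lowest of the other alternatives 0.0162).

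The potassium chloride cotransporters, which let salt out of swollen cells, were higher in KO for the genes called. Slc12a4 (chromosome 8, 105943590 to 105966097), the widely expressed member, had 1730 in both WT libraries and 2982 and 2880 in KO, 1.69-fold higher (0.76, SE 0.06, adjusted p = 0.00192). Slc12a7 went from 1643 and 1573 to 2489 and 2378 (0.60, adjusted p = 0.00392; 2.9e-06 to 0.0601 over the alternatives, the highest without WT replicate 2). Slc12a5, the neuronal member, had both KO libraries above both WT libraries and did not pass (0.28, adjusted p = 0.171). The groups did not overlap for these genes.

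The sodium-coupled chloride cotransporters were nearly all Slc12a2, which loads cells with chloride for secretion. It had 2179 and 3253 in WT and 2731 and 5295 in KO (0.51, adjusted p = 0.322), with overlapping groups. The kidney members Slc12a1 and Slc12a3 had 4 and 3 reads, all in WT replicate 2. Slc12a8 and Slc12a9 did not pass (-0.22 and -0.17).

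The Slc26 family of anion exchangers and channels had 1 called gene among its 6 tested members (all genes 46.7% in either direction). Slc26a8, known from sperm (chromosome 17, 28637783 to 28690233), had 17.32 and 62.34 in WT and 3.748 and 2.232 in KO (-3.12, SE 0.73, adjusted p = 0.0281). WT replicate 2 was 3.6-fold above WT replicate 1. Without WT replicate 2 the change was -2.23 (adjusted p = 0.0767), and the range over 13 alternatives was 0.00371 to 0.0985. Leaving out KO replicate 1 or 2 gave 0.0662 and 0.0985.

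Slc26a3, a chloride and bicarbonate exchanger of the colon, had 70.3 and 137.7 in WT and 71.21 and 7.811 in KO (-1.98, SE 1.10, adjusted p = 0.206). KO replicate 1 equalled the lower WT library to within 1 normalized count and was 9.12-fold above KO replicate 2, and without KO replicate 1 the change was -3.50 (adjusted p = 0.0195; 0.0195 to 0.575 over the alternatives). Slc26a2, a sulfate transporter, and Slc26a11 made up most of the class per kb, with 45.1% and 35.5% in WT replicate 1 and 39.3% and 42.6% in KO replicate 2, and neither passed (-0.09 and 0.29). Slc26a6 (0.32) and Slc26a10 (0.53) did not pass either, and 17.8% of the exon bases of Slc26a10 are shared with B4galnt1 on the opposite strand. Among the untested members, Slc26a7 had 35 reads in WT and 3 in KO (ratio 11.1, 3.51 to 56.6). Slc26a4, or pendrin, had 10 and 0. With the KO group set to its floor of 3 reads, WT was 3.18-fold higher for Slc26a4 (lower end of the exact interval 2.14). Slc26a1 had 3 to 7 reads per library, Slc26a9 had 0 to 2, and Slc26a5, the hair cell motor protein, had 0 throughout.

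**Figure D3:**
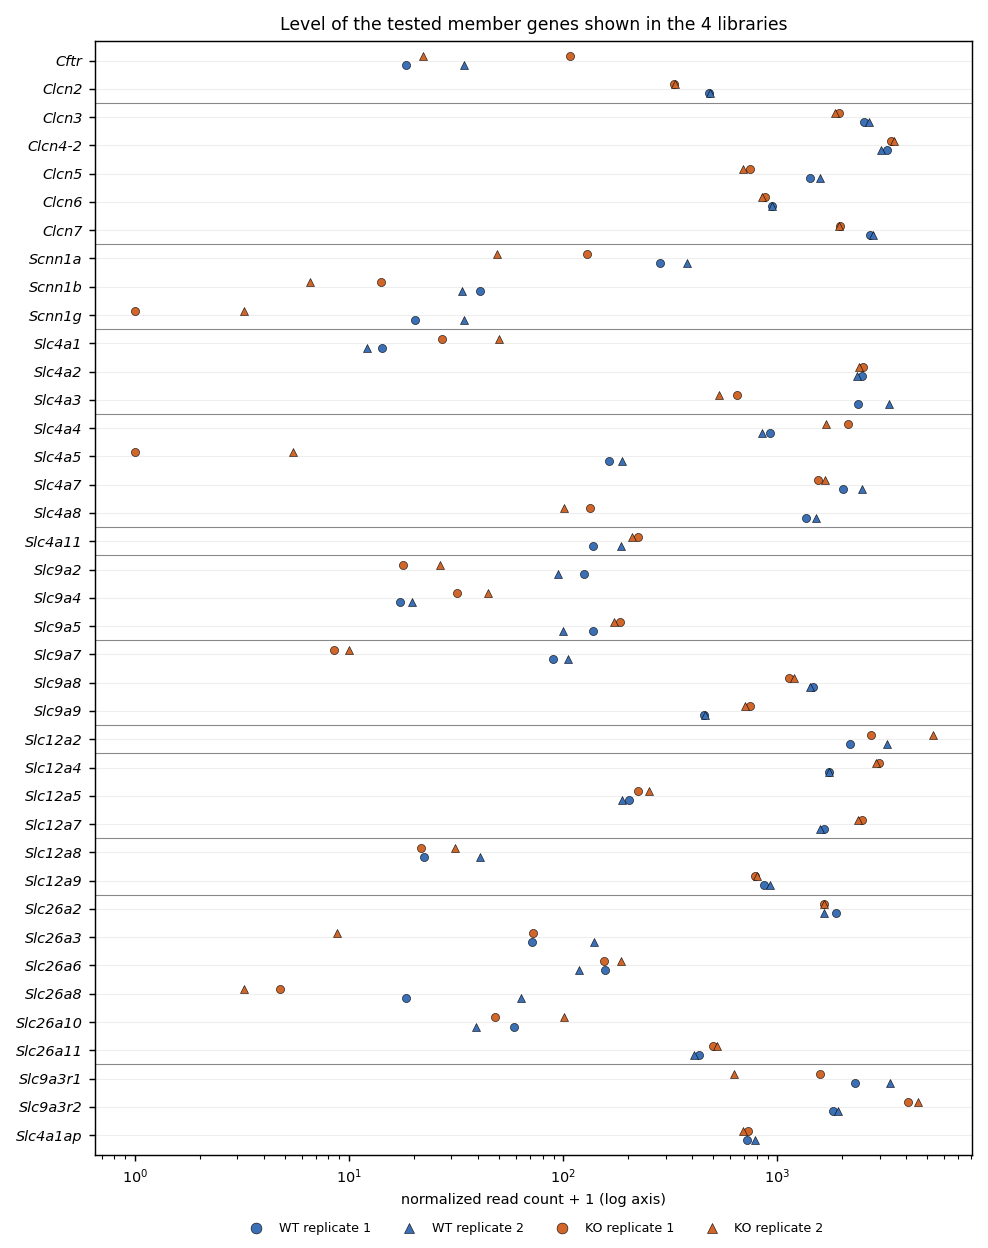
Normalized read count + 1 (log axis) of 39 tested members, 1 marker per library, with lines between the classes. Scnn1g and Slc4a5 have a KO library at 0 counts, and the KO markers of Cftr, Slc26a3 and Slc9a3r1 lie far apart from each other.

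The scaffold proteins Slc9a3r1 and Slc9a3r2, which tether transporters to ezrin and the cell cortex, moved apart, and 1 of them was called. Slc9a3r2 (chromosome 17, 24639286 to 24650327) had 1819 and 1909 in WT and 4067 and 4547 in KO, 2.31-fold higher (1.21, SE 0.08, adjusted p = 0.00148). Slc9a3r1, the scaffold of many epithelial brush borders, had 2291 and 3359 in WT and 1575 and 624.9 in KO (-1.48, SE 0.49, adjusted p = 0.0689), and without KO replicate 1 it was -2.15 (adjusted p = 0.0137; 0.0137 to 0.354 over the alternatives). Per kb, Slc9a3r1 was 1.73 and 2.42 times Slc9a3r2 in WT and 0.532 and 0.189 times in KO. Among all members, Slc9a3r1 had the highest mean level per kb in WT (1468) and Slc9a3r2 in KO (1628). Slc4a1ap did not pass (-0.09).

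The KO libraries differed from each other in mesothelial markers and in some members. The 6 mesothelial markers summed to 4689 and 7941 in WT and to 20119 and 3997 in KO, 5.03-fold higher in KO replicate 1 than in KO replicate 2, and none of the 6 was at 0 or was called. In the same order of KO libraries, Cftr was 4.99-fold, Slc26a3 9.12-fold, Slc9a3r1 2.52-fold, Scnn1a 2.66-fold and Scnn1b 2.35-fold higher in KO replicate 1. Among the 43 tested members these were the 5 more than 2-fold higher in KO replicate 1, while 4 were more than 2-fold higher in KO replicate 2. The latter included Slc26a10 (46.85 and 99.31, 2.12-fold), and Scnn1g and Slc4a5, which had 0 reads in KO replicate 1. By any amount, 22 tested members were higher in KO replicate 1 and 21 in KO replicate 2. General epithelial markers, which include keratins, summed to 4266 in KO replicate 1 and 732 in KO replicate 2, while Epcam was at 12.18 and 8.927. The 5 members higher in KO replicate 1 were picked after their values were seen, and the part of mesothelial or other epithelial cells in their levels was not tested.

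**Figure D4:**
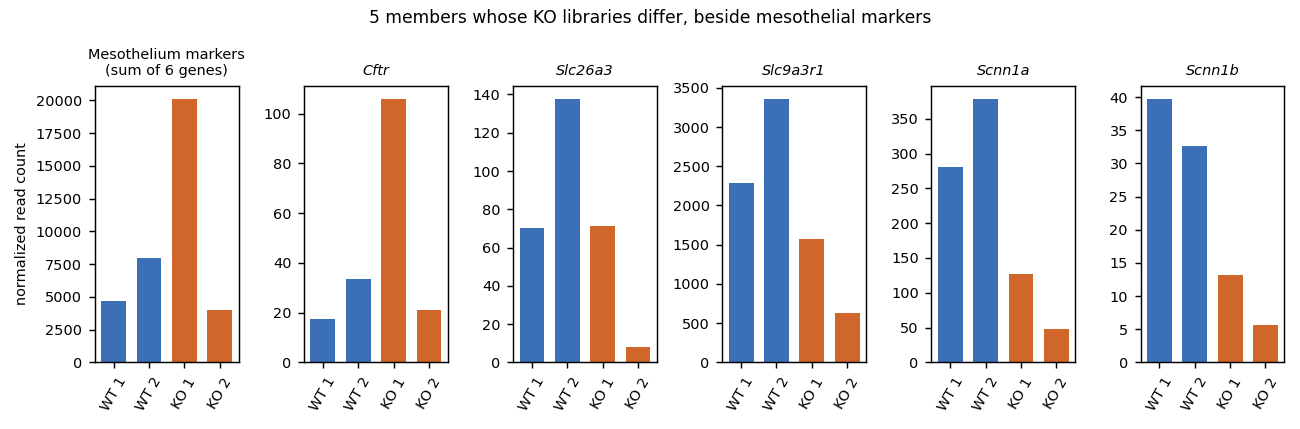
Normalized read count per library of 6 summed mesothelial markers and of 5 members (bars, 1 per library, linear axes from 0 with a different scale in each panel). The markers stand at 20119 in KO replicate 1 and 3997 in KO replicate 2, and each of the 5 members is higher in KO replicate 1 than in KO replicate 2.

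Regulators and partner subunits of these transporters were described from a list of 27 genes, all tested. Of these, 10 were lower and 5 higher, with a median of -0.09 (all genes -0.01). Among all genes tested, 24.4% were lower and 22.4% higher. Wnk2 and Wnk4 are kinases that act through Stk39 and Oxsr1 on the Slc12 cotransporters. Wnk2 had 2057 and 2933 in WT and 43.1 and 47.98 in KO (-5.72, adjusted p = 0.000585), and Wnk4 had 605.2 and 675.5 in WT and 51.53 and 63.6 in KO (-3.46, adjusted p = 0.000854). Wnk1, named after its values were seen, was higher, with 10677 and 10648 in WT and 13166 and 12746 in KO. Its change was 0.28 (adjusted p = 0.0364), called in 8 of 14 alternatives. Wnk3 was not called (0.06, adjusted p = 0.901). Stk39 was lower (-0.70, adjusted p = 0.00385), and Oxsr1 did not pass (0.17, adjusted p = 0.0916). Foxi1, the transcription factor of cells rich in the proton pump, had 324 reads in WT and 0 in KO. With KO set to its floor of 3 reads, WT was 103-fold higher for Foxi1 (lower end of the exact interval 83.39). Pdzk1, a scaffold of brush borders, fell from 584.8 and 540.6 to 3.748 and 1.116 (-7.47, adjusted p = 0.00123; 6.06e-28 to 0.0516 over the alternatives, the highest without WT replicate 2). Bsnd, a chloride channel subunit, was named after its values were seen and had 133 reads in WT and 0 in KO. Against the same floor, WT was 42.3-fold higher for Bsnd (lower end of the exact interval 33.95).

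Other partners were on the opposite side. Chp1, the calcium-binding subunit of the surface sodium/proton exchangers, rose from 7637 and 6795 to 18452 and 20488 (1.43, adjusted p = 0.00168), and its relative Chp2 from 610.3 and 530.3 to 1131 and 1332 (1.11, adjusted p = 0.00428; without WT replicate 1 or 2, 0.0536 and 0.0746, and at the lowest 2.35e-08). Ahcyl2, a relative of the protein that releases Slc4a4 from inhibition, rose from 4683 and 3409 to 10299 and 11094 (1.42, adjusted p = 0.00488). Cab39l, a partner of Stk39, rose by 0.46 (adjusted p = 0.0145; without WT replicate 1, WT replicate 2 or KO replicate 2, 0.0823, 0.122 and 0.0553, and at the lowest 0.00161). Groups did not overlap for these 4 genes. Tesc, another partner in this list, was lower, with 101.9 and 198.2 in WT and 50.6 and 54.68 in KO. Its change was -1.42 (SE 0.37, adjusted p = 0.0371), called in 10 of 14 alternatives, and it was named after its values were seen. Leaving out WT replicate 2 left 4 lower and 2 higher in this list.

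In the list of carbonic anhydrases and epithelial proton pump subunits, 9 of 10 genes were tested, 5 were lower and 1 was higher. The list median was -2.92, and all genes tested had 24.4% lower and 22.4% higher. Car2, the cytosolic enzyme that makes bicarbonate, had 845.7 and 700.6 in WT and 91.82 and 100.4 in KO (-2.99, adjusted p = 0.000863). Car14, a membrane-bound form, had 456.5 and 561 in WT and 0 and 5.579 in KO (-7.63, adjusted p = 0.00547; without WT replicate 1 or 2, 0.0844 and 0.103, and at the lowest 2.12e-05). The proton pump subunits Atp6v1g3 and Atp6v1b1 had 249 and 66 reads in WT and 0 in KO. With KO set to its floor of 3 reads, WT was 79.2-fold and 21-fold higher (lower ends of the exact intervals 63.98 and 16.61). Atp6v0a4 and Atp6v1c2, other pump subunits in this list, were named after their values were seen and were not called. Atp6v0a4 had 58.08 and 107 in WT and 262.3 and 46.86 in KO, with overlapping groups (0.49, adjusted p = 0.68). Atp6v1c2 had 188.5 and 251.2 in WT and 52.47 and 142.8 in KO (-1.32, adjusted p = 0.105). Atp6v0d2, a subunit of osteoclasts and macrophages among others, gave the single rise (130.4 and 135.8 in WT, 188.3 and 270 in KO; 0.76, adjusted p = 0.0497), with all 8 macrophage markers higher in KO as well. That call was lost in 7 of 14 alternatives (adjusted p 0.0245 to 0.244), and the part of macrophages in it was not tested. Leaving out WT replicate 1, or WT replicate 2, gave 3 lower genes in this list.

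**Figure D5:**
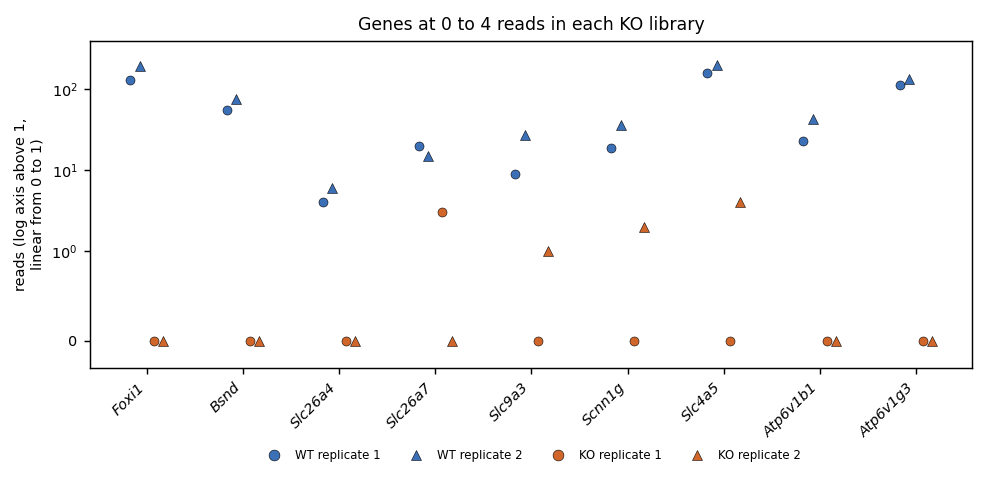
Reads per library (not normalized; log axis above 1 and linear from 0 to 1) of 5 members and 4 listed partners with 0 to 4 reads in each KO library, picked after their values were seen. In these genes all WT markers lie above all KO markers; 14 members had at most 4 reads in each KO library, and the 5 of them whose groups overlapped (Slc12a1, Slc12a3, Slc26a1, Slc26a5 and Slc26a9), with 4 of the other 9, are not drawn. Foxi1, Bsnd, Slc26a4, Atp6v1b1 and Atp6v1g3 are at 0 in both KO libraries.

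Across the 12 untested members, whose highest mean was 9.29 normalized counts, both KO libraries lay below both WT libraries for 5, among them Slc4a10, Slc9a3, Slc26a4 and Slc26a7, and 11 of the 12 had at least 1 read. The same was true of 28.2% of the 6949 genes under the filter with at least 1 read. The 20 tested members that did not pass ran from -1.98 to 1.03, and 8 of them lay within 0.2 of 0. Their groups overlapped for 11, with KO above WT for 6 and below for 3. Where a gene did not pass, these 4 libraries do not show that its level was the same.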

How the data were processed

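RNA-seq of 2 WT and 2 KO libraries was used, grouped by the genotype in the labels. The submitters' processing notes name the build GRCm38 and, in no stated role, DESeq2 1.4.5, HTSeq 0.5.3, TopHat2 2.0.10 and CASAVA 1.8; the annotation and the use of strand in counting are not given in the sources used here. The authors deposited a signal per gene (normalized count), which is reads divided by a size factor, and 100% of these values came back as whole reads within 0.01. Totals were 31831904 and 34056187 reads in WT and 37980391 and 33880872 in KO. Replicates differed beyond sampling noise (chi-square per degree of freedom 49 in WT and 34.7 in KO). The authors also deposited log2 fold changes, p-values and a score for their test statistic.

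Genes with a mean of 10 or more were fitted with limma 3.58.1 (R 4.3.3) on log2(normalized count + 1), which understates changes of low genes, with an intensity trend, Benjamini-Hochberg adjustment over 16710 genes and prior degrees of freedom of 2.36. Alternatives were other pseudocounts, filters and scalings, robust moderation, DESeq2 1.42.0 and edgeR 4.0.16 run on those whole reads, the replicate number as a block, and each library left out; where a group had 1 library left, its spread was taken from the other group. The script was tested on simulated data. Ratios of genes with 0 to 3 KO reads are per normalized read with exact 95% intervals, and a floor of 3 reads stands for 0; both cover counting error only, since PCR copies of a molecule could not be told apart. Levels per kb use the exon length of GENCODE M21. Some members are counted but not reported singly here. Members and lists were chosen with earlier results of these data known. Named in full were members past the threshold that changed by 1 or more on the log2 scale, Cftr and the Scnn1 genes, and up to 4 genes of each list by smallest p in each direction, plus Foxi1.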

Additional observations from a re-analysis of the deposited data

How the results depend on the processing

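Of the 14 alternative fits, pseudocounts of 0.5 and 5, TMM and upper-quartile scaling, edgeR and robust moderation gave the same 23 called members, and DESeq2 gave 22. Without a filter 6 members were higher and 20 lower, and with a mean of 50 or more 6 and 13 of 36 tested. Leaving out 1 library gave 2 to 6 members higher and 3 to 15 lower, the fewest without WT replicate 2. In the regulator list such fits gave 2 to 4 higher and 4 to 9 lower, and in the carbonic anhydrase and proton pump list 0 to 1 higher and 3 to 7 lower. The single rise in that list became 0 with a pseudocount of 0.5, with edgeR and with the replicate block. The correlation of same-number deviations was -0.01, which with 2 libraries per group cannot settle whether the replicate number pairs them. With the replicate block 5 members were higher and 13 lower.

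Signs turned only in genes that were not called. Fits that left out 1 library ran from -0.18 to 2.09 for Cftr, -0.02 to 0.06 for Slc4a2, -0.66 to 0.21 for Slc12a8, -0.18 to 0.00 for Slc26a2 and -0.01 to 1.06 for Slc26a10. In the lists they ran from -0.27 to 0.40 for Wnk3, -0.05 to 0.02 for Nr3c2, -0.02 to 0.72 for Hsd11b2, -0.04 to 0.02 for Gopc, -0.41 to 0.15 for Car4 and -0.74 to 1.72 for Atp6v0a4. Wnk3 was -0.00 with edgeR and Gopc 0.00 with upper-quartile scaling. The cause of these turns was not tested beyond the fewer libraries in each fit. Counts under about 10 reads limit the untested members.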
